A study of Mus musculus with 3 samples.

Results

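Lrig1, Ablim1, Gramd3 and Pou6f1 are 4 mouse genes chosen by a measured value, a read count over 10-fold higher in the alisertib library than in the control library, and for not being classic lymphocyte markers. They are 4 of the 19723 genes in the deposited count table, and each was found there by its Ensembl identifier. The values of that contrast therefore chose the genes, and below they are a description. MDSCs (suppressor cells of the myeloid lineage, defined by their ability to hold back T cell responses) were sorted from 20 pooled tumours of mice treated with alisertib, an inhibitor of the mitotic kinase Aurora A, and from 20 pooled tumours of control mice. The third sort held bone marrow neutrophils pooled from 5 wild-type animals. All 3 sorts came from female BALB/c mice aged 6 to 8 weeks. For the control mice the labels say untreated in one place and control treated in another, which leaves the use of a vehicle unstated, and no tumour line, dose or surface marker of the sorts is named. Each group was 1 library, so no difference below has a replicate check and none was tested; intervals are exact 95% intervals that cover counting error only.

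Lrig1 encodes a transmembrane protein with leucine-rich repeats and immunoglobulin-like domains that lowers signalling of ErbB and other receptor tyrosine kinases, in part through the ubiquitin ligase CBL, and that marks slowly dividing stem cells in mouse skin and gut. Ablim1 encodes an actin-binding LIM protein, with LIM domains at one end and a villin headpiece that binds filamentous actin at the other. Gramd3, also named Gramd2b, encodes a protein with a GRAM domain, a lipid-binding fold found in proteins at contacts between the endoplasmic reticulum and the plasma membrane. Pou6f1 encodes a transcription factor with a POU domain and a homeodomain, studied mostly in the brain. The 4 products thus sit at the cell surface, on the actin skeleton, at inner membranes and in the nucleus.

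The 4 genes lie on different chromosomes in GRCm38 as annotated by GENCODE M21. Lrig1 (ENSMUSG00000030029) spans chromosome 6 from 94604529 to 94700158 on the minus strand. Ablim1 (ENSMUSG00000025085) spans chromosome 19 from 57032733 to 57314919 on the minus strand. Pou6f1 (ENSMUSG00000009739) spans chromosome 15 from 100575318 to 100599984 on the minus strand. Their exons cover 5585 bases in Lrig1, 11949 in Ablim1, 5679 in Gramd3 and 6949 in Pou6f1.

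RefSeq promoter windows (build GRCm38.p6) were matched by symbol for 3 of the 4 genes. The 250 bases upstream of the RefSeq start are shown because the 3 genes were high in the same library and their upstream bases can be set side by side. For Ablim1, which has 5 listed starts, the window of the start farthest upstream is shown, since counts per gene do not tell which start was used. Capitals mark the GC box GGGCGG on either strand and, in Pou6f1, the octamer core ATGCAAA, here on the reverse strand.
Lrig1, chr6:94700146-94700395, minus strand: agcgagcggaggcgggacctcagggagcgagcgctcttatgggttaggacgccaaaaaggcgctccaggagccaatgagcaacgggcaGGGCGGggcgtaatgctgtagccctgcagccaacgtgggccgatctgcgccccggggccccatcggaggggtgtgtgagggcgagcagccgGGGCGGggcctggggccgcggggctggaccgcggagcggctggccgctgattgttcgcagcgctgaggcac
Ablim1, chr19:57314920-57315169, minus strand: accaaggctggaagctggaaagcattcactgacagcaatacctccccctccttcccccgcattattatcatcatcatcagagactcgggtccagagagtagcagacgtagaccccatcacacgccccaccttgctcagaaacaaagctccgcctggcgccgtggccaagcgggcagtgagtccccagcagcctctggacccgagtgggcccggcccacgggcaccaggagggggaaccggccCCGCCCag
Pou6f1, chr15:100599985-100600234, minus strand: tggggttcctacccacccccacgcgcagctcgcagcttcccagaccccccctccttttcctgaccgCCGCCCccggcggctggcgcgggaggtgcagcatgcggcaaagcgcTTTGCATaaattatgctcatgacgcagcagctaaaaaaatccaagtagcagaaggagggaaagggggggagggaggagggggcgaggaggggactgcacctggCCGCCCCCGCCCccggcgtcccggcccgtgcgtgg

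Over the whole windows (250 bases before to 50 after the start), the 3 sequences were rich in G and C. Lrig1 held 73.0% G and C with 35 CpG dinucleotides, Ablim1 65.3% with 20 and Pou6f1 70.3% with 26, against medians of 52.7% and 7 over 32851 windows. The other Ablim1 starts held 45 to 50.3% G and C and 5 to 7 CpG dinucleotides, so the 5 starts differ in base content. GGGCGG occurred 2 times in Lrig1, 1 time in Ablim1 and 3 times in Pou6f1, and in 35.7% of all windows. The octamer core ATGCAAA, a sequence that POU domain proteins of the octamer-binding class recognise, occurred in Pou6f1, with its first base 138 bases before the start, and in 4.63% of all windows. The 6 letters CACCTG, an E box of E proteins, occurred in Pou6f1 and in 20.2% of windows, and CCAAT occurred in Lrig1 and in 37.4%. The other Ablim1 starts, numbered from the farthest upstream, held GGGCGG at starts 2 and 3, CCAAT at start 4 and CACCTG at start 5. CTTTGA, the core that LEF and TCF proteins bind, was in none of the 3 windows shown and in 16% of all. All 5 letter strings were searched on both strands, the matches in these 3 windows did not overlap, and a match is a description of letters only.

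The libraries held 19373087 counts with alisertib, 21959748 in control and 21987097 in bone marrow. Counts were scaled by TMM factors to CPM (counts per 1000000 of the scaled library), and 13019 genes reached 1 CPM in at least 1 library. A floor of 3 counts corresponds to 0.145 CPM in the alisertib library, 0.154 in control and 0.130 in bone marrow. All 4 genes passed the 1 CPM filter. Lrig1 passed only through the alisertib library, and a gene that passes only where it is high had to differ. Neutrophil identity genes such as S100a8, S100a9 and Csf3r were abundant in all 3 libraries. The 16 genes of that list summed to 18634 CPM with alisertib, 39834 in control and 119227 in bone marrow, and none was at 0 in any library. In pooled bulk RNA, fewer cells of a type and less RNA per cell cannot be told apart.

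Lrig1 was counted 252 times in the alisertib library, against 2 times in the control library and 1 time in bone marrow neutrophils. It was thus near the median of expressed genes in alisertib MDSCs and below the floor in both other libraries. Its level was 12.1 CPM with alisertib (10.7 to 13.7), 0.102 in control (0.0124 to 0.370) and 0.0433 in bone marrow (0.00110 to 0.242). The ratio of alisertib to control, after adding 0.5 to each count, was 95, with an interval of 32.5 to 984. That was the highest ratio of all 13019 genes, and its wide interval comes from the 2 control reads. Against bone marrow the ratio was 187 (49.8 to 11105). Between control and bone marrow both counts lay under the floor, and no ratio is given.

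Ablim1 had the most reads of the 4 genes, with 778 counts in alisertib MDSCs, 39 in control MDSCs and 109 in bone marrow neutrophils. Its level was 37.5 CPM with alisertib (34.9 to 40.2), 2.0 in control (1.42 to 2.73) and 4.72 in bone marrow (3.88 to 5.70). The alisertib library was 18.5-fold above control (13.6 to 26.6) and 7.90-fold above bone marrow (6.48 to 9.78). Control MDSCs held less of it than bone marrow neutrophils, at a ratio of 0.426 (0.285 to 0.614), so the control library was the lowest of the 3.

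Gramd3 (ENSMUSG00000001700) spans chromosome 18 from 56400337 to 56503792 on the plus strand. It followed the same order of libraries as Ablim1, with 352 counts in alisertib MDSCs, 27 in control MDSCs and 58 in bone marrow neutrophils. Its level was 17 CPM with alisertib (15.2 to 18.8), 1.38 in control (0.911 to 2.01) and 2.51 in bone marrow (1.91 to 3.25). The ratio of alisertib to control was 12.1 (8.29 to 18.9) and that of alisertib to bone marrow 6.70 (5.10 to 9.07). Control over bone marrow was 0.555 (0.335 to 0.882).

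Pou6f1 had 284 counts in alisertib MDSCs, 26 in control MDSCs and 16 in bone marrow neutrophils, so here bone marrow was the lowest. Its level was 13.7 CPM (12.1 to 15.4) with alisertib, 1.33 CPM (0.869 to 1.95) in control and 0.694 CPM (0.396 to 1.13) in bone marrow. Alisertib stood 10.1-fold above control (6.87 to 16) and 19.2-fold above bone marrow (11.9 to 35.0). Control over bone marrow was 1.90 (0.991 to 3.83), an interval that includes 1, so no difference between those libraries was detectable at this depth.

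**Figure D1:**
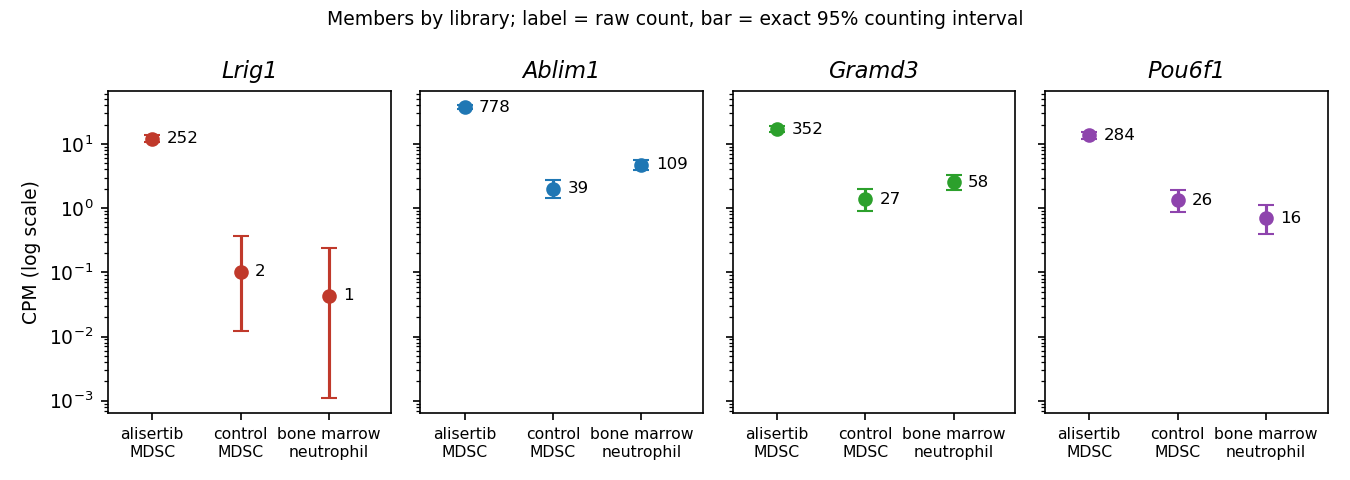
Level of each gene in CPM (log axis) in the alisertib MDSC, control MDSC and bone marrow neutrophil libraries, 1 library each, with the raw count beside each point and exact 95% counting intervals as bars. The alisertib point lies above both others in every panel; Lrig1 has 2 counts in control and 1 in bone marrow, while in bone marrow Ablim1 keeps 109 counts and Gramd3 58.

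The background to these ratios was small in the contrast that chose the genes. Of 13019 genes, 59 had a ratio of alisertib to control over 10, which is 0.453%, and 11 lay over 10-fold the other way (0.0845%). The 4 genes ranked 1 (Lrig1), 16 (Ablim1), 40 (Gramd3) and 58 (Pou6f1) by ratio. Of the 59, 39 had at most 3 counts in the control library and their median level with alisertib was 1.54 CPM, so most rested on few reads. By CPM in the alisertib library, Ablim1, Gramd3 and Pou6f1 were the highest 3 of the 59 and Lrig1 the fifth. Others among the highest 10 included the GTPase genes Gimap3 (254 counts with alisertib, 15 in control) and Gimap4 (136 counts with alisertib, 11 in control), the T cell transcription factor gene Lef1 (208 counts with alisertib, 6 in control), Kbtbd11 (113 counts with alisertib, 10 in control) and the pseudokinase gene Trib2 (104 counts with alisertib, 6 in control). Gimap genes have close copies, so their share of reads is uncertain.

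The genes next to the threshold show how finely it fell. Just above 10-fold were Pou6f1 and the B cell surface gene Ms4a1, both at 10.1, and Kbtbd11 at 10.2. Just below were the adaptor gene Grb7, the enkephalin precursor gene Penk and Itm2a, each at 9.97 with 26 counts with alisertib and 2 in control. Pou6f1 had over 10 times the reads of those 3 genes in the control library, and its interval of 6.87 to 16 holds values on both sides of 10. On the log2 scale its ratio of 3.34 became 3.28 with DESeq2 size factors and 3.26 with a prior count of 2, both just under 10-fold.

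A second rule asked whether the bound of the interval nearest to 1 was at least 2-fold. All 4 genes passed it for alisertib over control, where 1.80% of genes were called higher and 1.18% lower, but that contrast chose them. Of those calls 60.3% were higher, against 84.0% with libraries scaled to total counts and 34.6% with a 10 CPM filter. All 4 also passed it for alisertib over bone marrow, where 18.7% of genes were called higher and 22.3% lower. Lrig1 and Pou6f1 were over 10-fold above bone marrow, as were 5.82% of genes, while 5.08% were over 10-fold below. That comparison shares the alisertib library with the one that chose the genes. None of Ablim1, Gramd3 and Pou6f1 passed it for control over bone marrow, where 18.3% of genes were called higher and 22.9% lower. None of the 3 was over 10-fold apart there either, where 5.39% of genes were over 10-fold higher and 5.32% lower. That comparison shares the control library with the one that chose the genes.

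**Figure D2:**
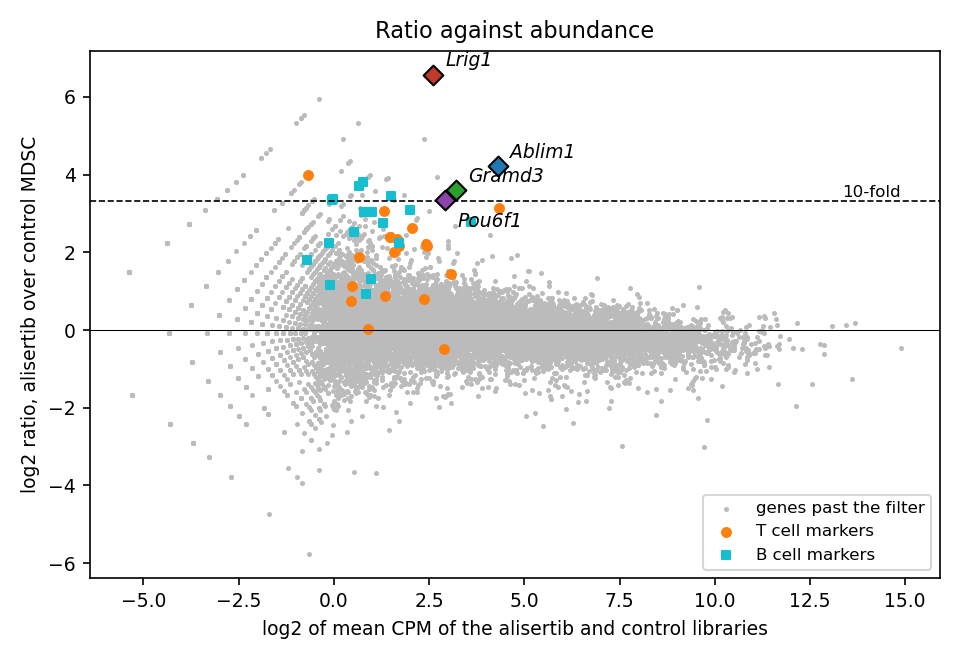
Log2 ratio of alisertib to control MDSC (vertical) against the log2 of the mean CPM of those libraries (horizontal) for the 13019 genes past the filter in grey, T cell markers as orange circles, B cell markers as cyan squares and the 4 genes as diamonds, 1 library each; the dashed line is 10-fold. Lrig1 is the topmost point, at a log2 ratio of 6.57, and Ablim1, at 4.21, is the gene above the line with the most reads.

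The 4 genes did not keep a fixed proportion to each other. Lrig1 made up 15.1% of their summed counts in the alisertib library, 2.13% in control and 0.543% in bone marrow. Pou6f1 made up 17% of the sum with alisertib, 27.7% in control and 8.70% in bone marrow. Ablim1 held the largest share in each, at 46.7% with alisertib, 41.5% in control and 59.2% in bone marrow.

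Levels of different genes can be set side by side only per length, which the deposited FPKM values give (fragments per kilobase, adjusted for library size). In alisertib MDSCs the order was Gramd3 at 6.32 FPKM, Ablim1 at 3.05, Lrig1 at 2.11 and Pou6f1 at 1.93. Lrig1 and Pou6f1 did not differ beyond counting error there, as their FPKM ratio was 1.10 (0.921 to 1.30). In control MDSCs the order was Gramd3 at 0.517 FPKM, Pou6f1 at 0.188, Ablim1 at 0.163 and Lrig1 at 0.0179. Ablim1 and Pou6f1 were not separable in that library, at an FPKM ratio of 0.866 (0.514 to 1.48). In bone marrow neutrophils Gramd3 stood at 0.955 FPKM, Ablim1 at 0.391, Pou6f1 at 0.0995 and Lrig1 at 0.00768. In the alisertib library, the lead of Gramd3 over Ablim1 depends on the gene length. The FPKM values imply 2605 bases for Gramd3, which is 0.459 of its GENCODE M21 exon length, and with the GENCODE length Gramd3 stood at 2.99 CPM per kilobase and Ablim1 at 3.14 in that library. With that length the point value of Gramd3 was still above that of Ablim1 in control, at 0.243 CPM per kilobase against 0.167. The same held in bone marrow, at 0.443 against 0.395. No interval was computed with that length, and Gramd3 had 27 counts in control and 58 in bone marrow. The order of Gramd3 and Ablim1 in those libraries may therefore lie within counting error. For the other 3 genes the implied lengths were 0.992 to 1 of the GENCODE ones.

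The coding genes next to or overlapping the 4 genes had smaller ratios. Lrig1 shares 144 exon bases with the mitochondrial carrier gene Slc25a26 on the opposite strand, and the strand setting of the counting is not given in the sources used here. Slc25a26 had 7 counts with alisertib, 1 in control and 15 in bone marrow, far fewer than Lrig1 in the alisertib library. The flanking scaffold gene Magi1 was counted 2 times with alisertib and 7 in control, and Kbtbd8 on the other side had 22 with alisertib and 8 in control (ratio 2.49, 1.11 to 6.72).

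Around Ablim1, Fam160b1 had 1108 counts with alisertib and 1257 in control (ratio 0.830, 0.764 to 0.900), and Afap1l2 was listed at 0 FPKM with alisertib and 0.00892 in control. Around Gramd3, the dehydrogenase gene Aldh7a1, which lies 5.89 kb away, had 28 counts with alisertib and 12 in control (ratio 2.15, 1.08 to 4.74), and the zinc finger gene Zfp608 had 3923 with alisertib and 3927 in control (ratio 0.94). Around Pou6f1, the transcription factor gene Tfcp2 had 25 counts with alisertib and 23 in control (ratio 1.02, 0.557 to 1.89) and Dazap2 17969 with alisertib and 19343 in control (ratio 0.874). Neither Slc25a26 nor any of the 7 flanking genes with counts was called higher or lower between alisertib and control. Of all genes past the filter 1.80% were called higher and 1.18% lower, so none called among so few is near the background. Magi1 and Slc25a26 stayed below the 1 CPM filter of that background, and with so few counts they could hardly be called.

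**Figure D3:**
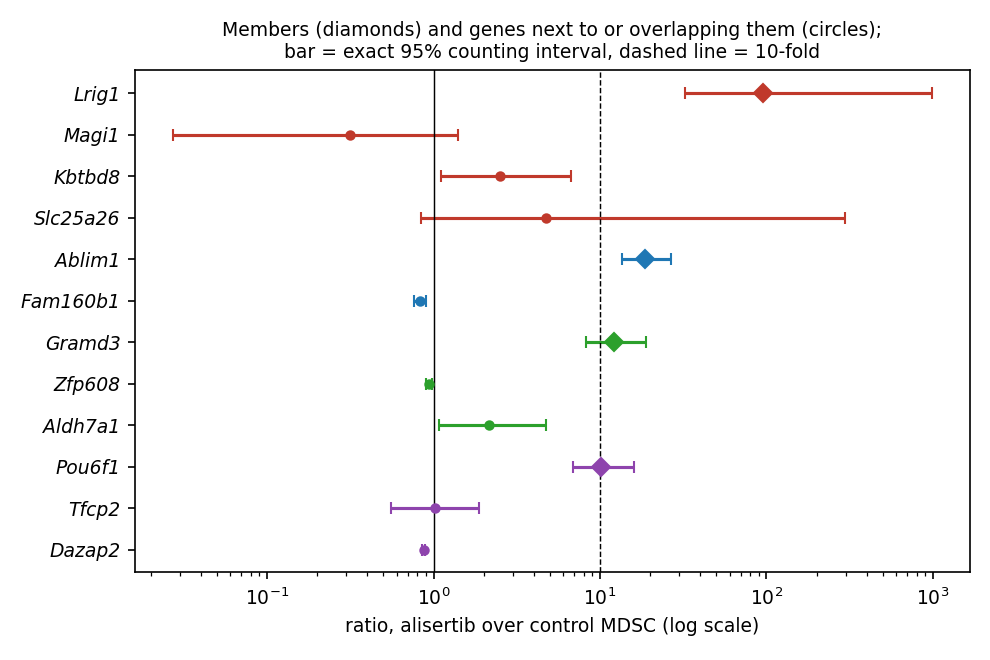
Ratio of alisertib to control MDSC (log axis) for the 4 genes (diamonds) and the coding genes that flank or overlap them (circles), 1 library each, with exact 95% counting intervals as bars and a dashed line at 10-fold. The flanking genes with counts have point ratios between 0.314 (Magi1) and 2.49 (Kbtbd8), and the overlapping Slc25a26 lies at 4.71 with an interval that includes 1.

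Of 25 receptor tyrosine kinase, ligand, CBL and feedback inhibitor genes, 16 passed the filter, 1 was called higher with alisertib and none lower (1.80% of all genes higher, 1.18% lower), and their median log2 ratio was 0.02 (-0.03 with DESeq2 size factors), beside 0.00 over all genes. The gene called was the ubiquitin ligase gene Cblb, which restrains T cell activation, at 603 counts with alisertib and 103 in control (ratio 5.49, 4.46 to 6.86). Cbl itself had 3184 counts with alisertib and 3150 in control (ratio 0.951), and the EGF receptor inhibitor gene Errfi1 2001 with alisertib and 2393 in control (ratio 0.787). The receptor genes that LRIG1 acts on were low: Egfr had 21 counts with alisertib and 17 in control, Erbb3 14 with alisertib and 16 in control, Erbb2 2 with alisertib and 0 in control, and Erbb4 was at 0 in all 3 libraries. Of the other receptor genes on the list, the hepatocyte growth factor receptor gene Met had 704 counts with alisertib, 835 in control and 80 in bone marrow. Ret had 5 with alisertib, 0 in control and 57 in bone marrow. The paralogue Lrig2 had 412 counts with alisertib, 451 in control (ratio 0.860, 0.750 to 0.985) and 721 in bone marrow. Lrig3, listed only in the FPKM table, was at 0.0231 FPKM with alisertib and 0.0123 in control.

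Of 25 actin-associated genes, most with a LIM domain or villin headpiece as in Ablim1 and with Actn1, Actn4 and Abra as exceptions, 17 passed the filter. None was called higher with alisertib and 1 was called lower (1.80% of all genes higher, 1.18% lower), and the median was -0.28 on the log2 scale. The gene called was Svil, which encodes the membrane-linked actin-binding protein supervillin, at 2291 counts with alisertib and 4568 in control (ratio 0.472, 0.449 to 0.496). The abundant actin-associated genes Lasp1 (ratio 0.824), Pxn (0.694) and Zyx (0.573) were not called.

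Of 18 genes with a GRAM domain or a role at contacts of the endoplasmic reticulum with the plasma membrane, 17 passed the filter, none was called between alisertib and control (1.80% of all genes higher, 1.18% lower), and the median log2 ratio was -0.15 (0.12 with total counts). Gramd1a, Gramd1b and Gramd1c, which encode cholesterol-binding relatives, had ratios of 0.826, 0.814 and 1.34, and Gramd4 1.34 (1.10 to 1.64). Gramd2 had 12 counts with alisertib, 23 in control and 381 in bone marrow. Stim1, a calcium sensor at these contacts, had 290 counts with alisertib, 227 in control and 2305 in bone marrow.

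Of 14 genes, POU domain genes with a cofactor among them, 6 were in the count table, 3 passed the filter and 1 was called higher with alisertib (1.80% of all genes higher, 1.18% lower). That was the B cell cofactor gene Pou2af1, at 64 counts with alisertib, 7 in control and 292 in bone marrow (alisertib over control 8.09, 3.94 to 22.3). Pou2f1 (586 counts with alisertib and 633 in control, ratio 0.871) and Pou2f2 (141 with alisertib and 133 in control, ratio 0.997) encode octamer-binding factors and were not called. The median of the 3 was -0.00 on the log2 scale (0.26 with total counts).

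Most T and B cell markers, too, stood higher in alisertib than in control MDSCs. Of 20 T cell markers, 19 passed the filter, 13 were called higher with alisertib and 0 lower (1.80% of all genes higher, 1.18% lower). The median was 2.15 on the log2 scale. Their counts summed to 129 CPM with alisertib, 38.3 in control and 160 in bone marrow, and none was at 0 in either tumour library. The bone marrow sum was mostly Cd3d, which had 3143 counts there, 129 with alisertib and 170 in control, against 2 counts for Cd3e in bone marrow, so Cd3d went against its list. Examples were the kinase gene Lck (186 counts with alisertib and 39 in control), the T cell receptor gene Trbc1 (92 with alisertib and 10 in control) and Cd3e (98 with alisertib and 17 in control).

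All 17 B cell markers passed the filter, 13 were called higher with alisertib and 0 lower (1.80% of all genes higher, 1.18% lower). The median was 2.79 on the log2 scale. They summed to 71.2 CPM with alisertib, 11.4 in control and 288 in bone marrow, and none was at 0. Of 18 resting lymphocyte genes, 17 passed and 7 were called higher (1.80% of all genes higher, 1.18% lower), with Lef1, Tcf7 (210 counts with alisertib and 23 in control), Bcl11b (90 with alisertib and 10 in control) and the homing receptor gene Ccr7 (324 with alisertib and 47 in control) among them. Their median log2 ratio was 0.91, and they summed to 1222 CPM with alisertib, 1424 in control and 2555 in bone marrow. Of 9 NK cell markers 3 passed with a median of -0.47, and none was called. The defining NK gene Ncr1 was at 0 counts with alisertib and at 3 in control; Klrb1c was at 0 in both tumour libraries. Eomes, which did not pass the filter, was counted 19 times with alisertib and 3 in control (ratio 5.24, 1.75 to 31.4), and Prf1 11 times with alisertib and 7 in control.

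The bone marrow library held many B cell reads and few T cell reads other than Cd3d, so it separates the marker groups. For alisertib over bone marrow, the median log2 ratio was 3.10 over the T cell markers and -1.65 over the B cell markers. On the same scale Lrig1 stood at 7.55, Pou6f1 at 4.26, Ablim1 at 2.98 and Gramd3 at 2.74. For control over bone marrow the B cell markers had a median of -4.64 and the T cell markers 1.44 (-0.73 with a 10 CPM filter), while Ablim1 stood at -1.23, Gramd3 at -0.85 and Pou6f1 at 0.92. The alisertib counts chose the 4 genes, so their values over bone marrow are given side by side with the markers as a description only.

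**Figure D4:**
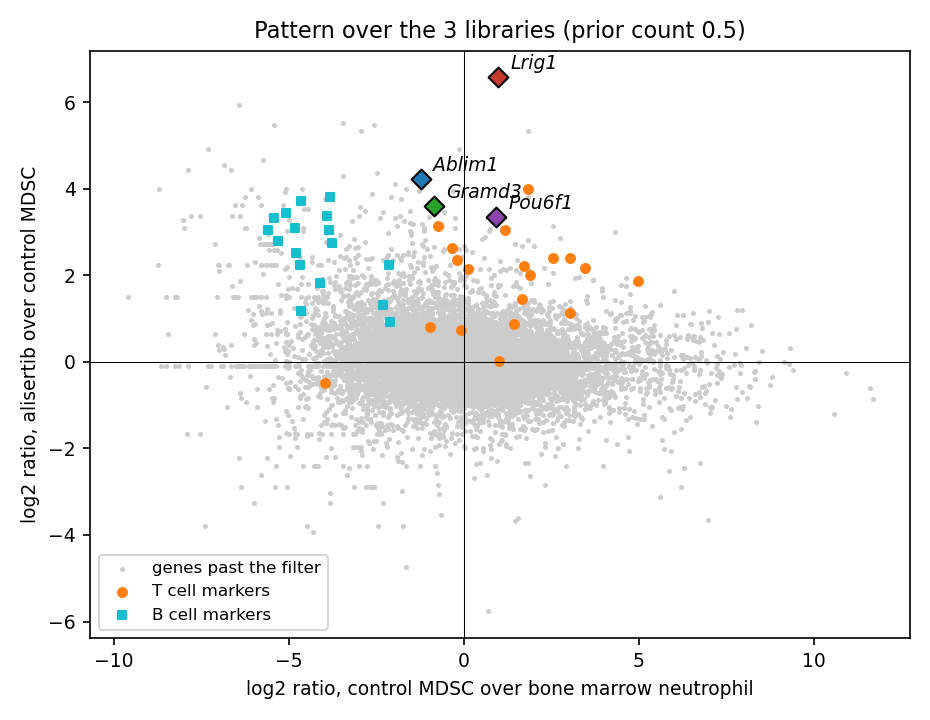
Log2 ratio of alisertib to control MDSC (vertical) against that of control MDSC to bone marrow neutrophil (horizontal), with 0.5 added to each count, for the 13019 genes past the filter in grey, T cell markers as orange circles, B cell markers as cyan squares and the 4 genes as diamonds, 1 library each. B cell markers lie to the left, T cell markers mostly near or right of 0, and the 4 genes above the bulk of genes between -1.23 (Ablim1) and the position of Lrig1, which rests on 2 counts in control and 1 in bone marrow.

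The genes with the most similar pattern were found by the distance between pairs of log2 ratios (alisertib over control, control over bone marrow) over the 3 libraries. For Pou6f1 the nearest 5 were the T cell transcription factor genes Tcf7 (distance 0.31) and Bcl11b (0.37), the T cell receptor gene Trbc1 (0.38), the T cell kinase gene Txk (0.55) and the protease gene Klk8 (0.64). Tcf7 had 210 counts with alisertib, 23 in control and 16 in bone marrow, close to the counts of Pou6f1. For Gramd3 the nearest 5 included Kbtbd11 (0.28), the RNA transporter gene Sidt1 (0.33), Tox (0.51) and Gimap6 (0.53). Tox had only 2 counts in control and 4 in bone marrow.

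For Ablim1 the nearest were Gimap3 (0.27), the interferon-inducible GTPase gene Iigp1 (0.46), Gramd3 itself (0.73), Ms4a4b (0.73) and the sulfotransferase gene Ust (0.74). The nearest genes of Lrig1 lay farther off. Its control over bone marrow ratio rests on 2 counts and 1, under the floor, so these distances depend on the 0.5 added to each count. Nearest were Tdrp at a distance of 1.5, with 64 counts with alisertib, 1 in control and 0 in bone marrow, and Lef1 at 2.0. Then came Themis, which acts in T cell selection, at 2.71, the ubiquitin ligase gene Znrf3, a Wnt feedback inhibitor, at 2.92, and Ablim1 at 3.23. This measure rests on 3 libraries, and 2 to 4 of the 5 genes were shared when the prior count or the unit was changed. Some neighbours had few reads. Iigp1 had 1 count in control and 5 in bone marrow, Themis 1 and 0, and Ust 2 and 11.

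Setting each gene against the marker counts of its own library gives a ratio that does not depend on library scaling. The summed T cell marker count was 2684 with alisertib and 749 in control, a ratio of 3.37 in CPM. Relative to that sum, Lrig1 was 35.2-fold higher with alisertib than in control (9.59 to 293), Ablim1 5.57-fold (3.99 to 7.97), Gramd3 3.64-fold (2.43 to 5.65) and Pou6f1 3.05-fold (2.02 to 4.79). Without Cd3d, the values were 28.6 (7.78 to 238), 4.52 (3.23 to 6.49), 2.95 (1.97 to 4.59) and 2.48 (1.63 to 3.89) for the genes in that order. For alisertib over bone marrow, values without Cd3d were 54.7 (9.68 to 2174) for Lrig1 and 3.86 (2.31 to 6.89) for Pou6f1. Ablim1 stood there at 1.55 (1.24 to 1.95) and Gramd3 at 1.32 (0.980 to 1.80), an interval that includes 1. With Cd3d kept, they were 347 for Lrig1, 24.5 for Pou6f1, 9.83 for Ablim1 and 8.36 for Gramd3.

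Relative to the summed B cell markers (1477 counts with alisertib, 223 in control, a CPM ratio of 6.23), the excess was 19-fold for Lrig1 (5.14 to 159), 3.01-fold for Ablim1 (2.11 to 4.4), 1.97-fold for Gramd3 (1.29 to 3.10) and 1.65-fold for Pou6f1 (1.07 to 2.63). Since a ratio over 10 chose the 4 genes and both marker sums differed by less, values above 1 for alisertib over control were fixed by that choice. They support nothing, and those over bone marrow share the alisertib counts that chose the genes. Single lymphocyte genes varied around the sums: Lef1 had a ratio of 30.2 (14.7 to 89.9), Tcf7 8.43, Trbc1 8.29, Lat 2.72, Cd5 1.84 and Thy1 1.02. With all 4 lymphocyte lists summed, the transcription factor gene Klf2 alone made up 39.5% of the sum with alisertib and 55.8% in control. The 4 ratios were then 123 (Lrig1), 19.4 (Ablim1), 12.7 (Gramd3) and 10.6 (Pou6f1). The part of the lymphocyte reads in the differences of the 4 genes was not tested.

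**Figure D5:**
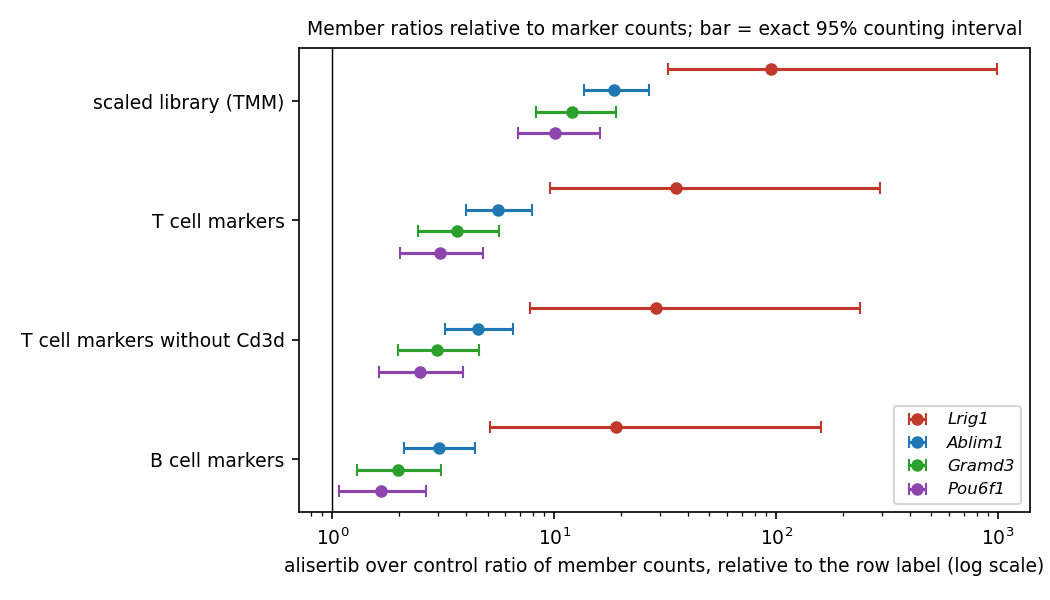
Ratio of alisertib to control MDSC for each of the 4 genes (log axis), relative to the scaled library and to the summed counts of 3 marker sets, with exact 95% counting intervals as bars, 1 library each; only the top row has 0.5 added to each count. The ratios shrink from the top row to the bottom one, to 19 for Lrig1 and 1.65 for Pou6f1 relative to B cell markers; the genes were chosen by the same counts, so ratios above 1 are no finding.

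Other marker lists differed less or the other way. Of the 16 neutrophil identity markers, 9 were called lower with alisertib and none higher (1.80% of all genes higher, 1.18% lower), and the median was -1.33 on the log2 scale. Monocyte and macrophage markers had a median of -0.01 (0.26 with total counts) over 13 genes with none called, and their sums were 1088 CPM with alisertib and 1016 in control. Dendritic cell markers had -0.24 (0.18 with total counts), with Ccl22 called lower (9 counts with alisertib and 45 in control). Xcr1 (75 counts with alisertib and 36 in control, ratio 1.95) and Clec9a (46 with alisertib and 15 in control, ratio 2.82) went the other way. Their intervals excluded 1, but neither gene was called. Itgax had a ratio of 1.12, while Flt3 (0.762) and Fscn1 (0.712) lay below 1 with intervals that include 1. Eosinophil, basophil and mast cell markers had a median of -0.47, erythroid and platelet markers -0.05 (0.22 with total counts), and epithelial markers 0.22 over 3 genes, with none called. Of the endothelial list (median 1.42 over 3 genes), Vwf was called higher (311 counts with alisertib and 109 in control) while Cdh5 was counted 2 times with alisertib and 5 in control, and Kdr 7 with alisertib and 10 in control; of the fibroblast list, where 1 gene passed the filter, Col5a1 was called lower (16 with alisertib and 92 in control) and Pdgfrb had 2 counts in each tumour library. Of 10 reference genes Actb alone was called, lower with alisertib (38265 counts with alisertib and 138895 in control), and their median was -0.03 (0.23 with total counts). The part of these differences in those of the 4 genes was not tested.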

How the data were processed

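RNA sequencing of 3 pooled sorts gave 1 library each. The authors deposited 2 tables, one of raw counts and one of FPKM values. Per the submitters' processing notes, the tools include CASAVA 1.8 and STAR 2.5.1b and the builds mm10 and mm9, with no role stated. Not given in the sources used here: the counter, annotation and strand setting. Symbols and positions came from GENCODE M21 (19648 of 19723 identifiers matched).

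TMM factors were computed with edgeR 4.0.16 in R 4.3.3 and other steps with Python 3.11.15 and SciPy 1.17.1. Genes with 1 CPM in at least 1 library were kept. Ratios had 0.5 added to each count, with exact Clopper-Pearson intervals, and relative ratios had exact conditional intervals. No molecular identifiers are described, so reads need not be independent molecules, and intervals cover counting error only. The calling rule was tested on simulated data. Alternatives were total counts, DESeq2 1.42.0 size factors, other prior counts, the FPKM values and other filters.

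The 4 genes, the 17 lists and the rules were chosen with earlier results of these data known. Named were the 4 genes, their relatives, flanking genes, the nearest 5 by pattern, genes next to or highest past the threshold, and up to 5 genes per list, called genes first and then the most abundant. Other list genes in the text, such as Lat, Cd5, Thy1, Cdh5, Kdr, Pdgfrb, Egfr, the ERBB genes, Cd3d, Cd3e, Lck, Trbc1 and the NK genes, were named after their values were seen. So were the dendritic cell genes other than Ccl22. Some genes that these rules select are not reported here.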

Additional observations from a re-analysis of the deposited data

How the results depend on the processing

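With total counts or DESeq2 size factors and with a smaller or larger prior count, the log2 ratios of the 4 genes stayed within their counting intervals. Total counts moved every alisertib to control log2 ratio by 0.27. With FPKM plus 1, the alisertib to control log2 ratios fell to 1.61 for Lrig1, 1.8 for Ablim1, 2.27 for Gramd3 and 1.30 for Pou6f1, and those of alisertib to bone marrow to 1.63, 1.54, 1.91 and 1.41; Ablim1 in control over bone marrow was -0.26. With FPKM plus 0.1, Lrig1 had 4.23 and Ablim1 3.58 over control, and Lrig1 4.36, Ablim1 2.68 and Pou6f1 3.34 over bone marrow. The added constant pulls ratios of low FPKM values towards 0.

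Against 59 genes over 10-fold higher with alisertib, there were 91 with total counts, 94 with a smaller prior count and 23 with a prior count of 2, and 10 and 227 with a 10 CPM filter and with none. Against 234 higher and 154 lower calls between alisertib and control, total counts gave 431 and 82, and the 10 CPM filter gave 66 higher. That moved the share of higher calls from 60.3% to 84.0% with total counts and 34.6% with the 10 CPM filter. With the 10 CPM filter, which tests fewer genes, higher calls over bone marrow were 1482 for alisertib and 1564 for control, with 1956 lower calls for control.

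The ratios relative to all lymphocyte lists (123, 19.4, 12.7 and 10.6) became 5.57, 3.64 and 3.05 relative to T cell markers for Ablim1, Gramd3 and Pou6f1. They were 19, 3.01, 1.97 and 1.65 relative to B cell markers and 28.6, 4.52, 2.95 and 2.48 relative to T cell markers without Cd3d, a set chosen after seeing the data. The cause was not tested.

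Medians of some lists between alisertib and control changed sign. That of LRIG1 partners was -0.03 with DESeq2 size factors and -0.08 with the 10 CPM filter. With total counts, medians were 0.12 for GRAM domain genes, 0.26 for POU genes, 0.26 for monocyte and macrophage, 0.18 for dendritic cell, 0.22 for erythroid and platelet markers and 0.23 for reference genes. That scaling adds 0.27 to each log2 ratio and slightly changes which genes pass the filter, so small negative medians turned positive. With the 10 CPM filter, they were 1.41 for POU genes, 0.16 for dendritic cell and 0.04 for eosinophil, basophil and mast cell markers. With no filter, they were 0.01 for monocyte and macrophage, 0.04 for dendritic cell, -0.22 for endothelial and 0.04 for erythroid and platelet markers. For control over bone marrow, T cell markers had -0.73 with the 10 CPM filter. The cause of the sign changes with the other settings was not tested. No paired analysis was possible because each group was 1 library.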
